A study of Rattus norvegicus with 144 samples.

Results

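The genes of the pore-forming and auxiliary subunits of voltage-gated calcium and sodium channels were examined in bulk RNA-seq of the rat anterior cingulate cortex. Members were the protein-coding genes whose symbols name a calcium channel α1, α2δ or β subunit (Cacna1, Cacna2d and Cacnb genes) or a sodium channel α or β subunit (Scn genes ending in a or b). The rule used symbols only and found 32 members, 18 of calcium and 14 of sodium channels, among 45785 genes. All members were on the table, and 31 passed the filter on low counts and were tested. Scn10a was not tested, with 0 counts in 88 libraries.

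The libraries, 69 of females and 75 of males, came from Long Evans rats in 24 groups of 4 to 7, and the question of the series was how prenatal and adolescent alcohol act on the cortex of each sex. Before birth the rats were in an ethanol group (PAE), a pair-fed group (PF) or a group with free choice of a liquid diet (FCL). The adolescent exposure was alcohol (AAE) or the water vehicle (VEH). Brains were taken on postnatal day 42, a day after the last adolescent exposure (34 female and 39 male libraries), or on postnatal day 90 without further treatment (35 female and 36 male libraries). The prenatal conditions held 44 PAE, 50 PF and 50 FCL libraries, and 72 libraries were AAE and 72 VEH. The labels name no animal, litter or cage, so each p-value speaks only of the spread among these libraries.

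Voltage-gated sodium channels open on depolarization and carry the upstroke of the action potential. Each has 1 α subunit, which forms the pore, and β subunits, which are single-pass membrane proteins that change gating and also act in cell adhesion. Voltage-gated calcium channels turn depolarization into calcium entry, which drives transmitter release, dendritic signalling and gene regulation. Their pore is an α1 subunit, whose trafficking and gating are set by an extracellular α2δ subunit and a cytoplasmic β subunit. In cortex the α subunits Scn1a, Scn2a, Scn3a and Scn8a are the neuronal ones, while Scn4a is known from skeletal muscle, and Scn9a, Scn10a and Scn11a from peripheral sensory neurons.

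Many members lie next to each other in the genome (assembly GRCr8). Scn3a, Scn2a, Scn1a, Scn9a and Scn7a form a cluster of 5 α subunit genes over 1291959 bases of chromosome 3, from 70554496 to 71846454. The β subunit genes Scn2b and Scn4b lie on the same strand of chromosome 8 with a gap of 9353 bases between them. The results on age turn on Scn4b, Cacna2d3, Cacna1a, Scn3a, Scn3b and Cacna1g. The first 4 have a 300-base window around the transcription start (250 bases before it and 50 after) in the RefSeq promoter table of GRCr8, and these are shown in full because their genes differed between ages. Capitals mark the GC box (GGGCGG or its reverse complement, the letters bound by factors of the Sp family) and the AP-1 site (TGANTCA, bound by Fos and Jun).
Scn4b, chr8:54343623-54343922, plus strand: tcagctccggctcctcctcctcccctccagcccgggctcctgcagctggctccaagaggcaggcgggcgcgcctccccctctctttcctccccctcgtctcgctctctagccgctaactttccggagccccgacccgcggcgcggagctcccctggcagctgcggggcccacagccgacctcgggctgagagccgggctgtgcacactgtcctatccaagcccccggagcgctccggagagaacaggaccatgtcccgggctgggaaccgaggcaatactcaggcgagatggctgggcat
Cacna2d3, chr16:4918850-4919149, minus strand: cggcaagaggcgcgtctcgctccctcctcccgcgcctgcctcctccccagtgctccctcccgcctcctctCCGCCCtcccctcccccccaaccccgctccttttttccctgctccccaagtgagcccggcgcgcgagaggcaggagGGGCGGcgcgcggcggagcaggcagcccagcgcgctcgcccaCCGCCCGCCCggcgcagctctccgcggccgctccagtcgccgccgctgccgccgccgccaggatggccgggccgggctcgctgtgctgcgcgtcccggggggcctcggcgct
Cacna1a, chr19:40650419-40650718, minus strand: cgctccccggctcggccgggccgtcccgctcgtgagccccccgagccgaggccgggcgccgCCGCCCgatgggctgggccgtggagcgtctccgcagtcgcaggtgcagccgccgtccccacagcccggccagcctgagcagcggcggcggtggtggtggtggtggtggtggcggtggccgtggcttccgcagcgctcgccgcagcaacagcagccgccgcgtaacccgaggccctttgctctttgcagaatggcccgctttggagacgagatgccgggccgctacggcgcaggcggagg
Scn3a, chr3:70666149-70666448, minus strand: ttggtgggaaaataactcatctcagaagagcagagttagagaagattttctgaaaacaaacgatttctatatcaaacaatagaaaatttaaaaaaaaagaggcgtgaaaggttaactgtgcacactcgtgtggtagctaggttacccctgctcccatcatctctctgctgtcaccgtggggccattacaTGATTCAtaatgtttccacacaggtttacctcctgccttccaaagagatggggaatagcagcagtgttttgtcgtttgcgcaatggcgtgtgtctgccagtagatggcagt

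These 4 windows differ in composition. The GC content was 79.3% for Cacna2d3, 76.0% for Cacna1a, 70% for Scn4b and 43.3% for Scn3a, against a median of 51.7% over all 33469 windows of the table. GC boxes were counted on both strands, and overlapping matches were counted separately: Cacna2d3 had 4, Cacna1a had 1, and Scn4b and Scn3a had 0. The window of Cacna1a lies inside the annotated span of the gene. The window of Scn3a held the only AP-1 site among the windows of members. Over all members the table had 25 windows for 22 genes, with a median GC content of 63.7%. A GC box was in 14 of the 25 windows (33.1% of all windows), an EGR site (GCGNGGGCG) in 7 (4.98%), a CCAAT box (CCAAT) in 5 (37.5%), a TATA box (TATAAA) in 1 (14.2%), an AP-1 site in 1 (7.33%) and a cAMP response element (TGACGTCA) in 0 (1.83%). Each match is a run of letters in the window and not a measured site.

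Totals ran from 10569296 to 34370169 counts a library. Markers of cortical excitatory neurons were present throughout: of 12 such genes none was at 0 in any library, and their summed level was 1968 to 4369 CPM (counts per 1e+06, with TMM library sizes). Before the results, 5 libraries stand apart. Female FCL AAE adult replicate 1 and male PF VEH adolescent replicate 6 held Cyp2a3, a nasal mucosa enzyme, at 2206 and 2371 CPM and the olfactory marker Omp at 258 and 398 CPM, against medians of 0.263 and 0.0806 CPM over all libraries. The library labelled female PF AAE adolescent 4 had Xist at 0.993 CPM and Y-linked genes at 0.331 CPM, and the library labelled male PAE VEH adolescent 4 had Xist at 379 CPM and Y-linked genes at 27.1 CPM, so neither matched the sex on its label. Female FCL AAE adult replicate 1 also held Y-linked genes at 46.3 CPM. Female PF VEH adult replicate 6 had the fewest genes detected, 15631. All libraries stayed in the fits, and results are given without these 5 where that changed them.

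Levels between genes are given in FPKM, which divides counts by gene length and library size, as the median over all libraries with the range. Of the sodium channel β subunits, Scn2b, whose product is bound to α subunits by a disulfide bridge, was at 80.9 FPKM (40.2 to 93.8). Scn3b was at 39.6 FPKM (30.3 to 71.8), and Scn4b, whose cytoplasmic tail is tied to resurgent sodium current, at 13.4 FPKM (3.09 to 39.4). The lowest Scn4b and the highest Scn3b came from the same library, female PF VEH adult replicate 6.

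Among the sodium channel α subunits 4 genes made up nearly all of the class. Scn2a, the α subunit of excitatory neurons, was at 64.8 FPKM (39.6 to 114.3). Scn8a, the α subunit of mature axon initial segments and nodes of Ranvier, was at 46.5 FPKM (27.96 to 54.9), and Scn1a, prominent in inhibitory interneurons, at 23.4 FPKM (14.0 to 35.4). Scn3a, best known from the embryonic brain, was at 5.61 FPKM (2.97 to 11.9). Their shares of the class were 45.6% ± 2.0, 32.7% ± 1.59, 16.6% ± 1.47 and 4.09% ± 0.556 (SD over all libraries). The order Scn2a, Scn8a, Scn1a, Scn3a is that of the medians, and the ranges of Scn2a and Scn8a overlapped.

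The other α subunit genes were low. Scn9a was at 0.648 FPKM, Scn7a, an atypical sodium-sensing channel, at 0.142, Scn4a at 0.0784, Scn11a at 0.0269 and Scn10a at 0. In Scn9a the 2 libraries with olfactory markers were at 14.2 and 12.2 FPKM, and without the 5 libraries that stand apart no library was above 1.599 FPKM. Scn4a was at 0 counts in 2 libraries and Scn11a in 35. At a median count of 2 for Scn11a and 9.5 for Scn4a, neither gene could show a small difference.

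The calcium channel α1 subunits were spread more evenly. Cacna1e, the R-type pore, was at 28.6 FPKM (15.4 to 46.9), and Cacna1i, a T-type pore, at 25.9 FPKM (7.53 to 36.3). The P/Q-type pore Cacna1a, which drives fast transmitter release, was at 20.02 FPKM (13.7 to 24.7), the N-type pore Cacna1b at 15.9 FPKM (8.47 to 20.7) and the T-type pore Cacna1g at 13.0 FPKM (7.47 to 16.8). These 5 held 24.4%, 22.2%, 17.3%, 13.7% and 11.2% of the summed FPKM of the class. The L-type pores Cacna1d and Cacna1c were at 5.41 and 3.50 FPKM, and the third T-type pore, Cacna1h, was at 3.73 FPKM. Cacna1s of skeletal muscle and Cacna1f of retina were at 0.194 and 0.0516 FPKM.

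Of the auxiliary calcium channel subunits, Cacna2d3 was at 33.5 FPKM (21.9 to 44.6) and Cacna2d1, the main binding site of gabapentin-type drugs, at 23.7 FPKM (14.9 to 43.2). Cacna2d2 was at 8.74 FPKM and Cacna2d4, known from retina, at 0.0292 FPKM. Cacnb3 was at 78.4 FPKM (20.5 to 108.2), Cacnb4 at 38.9 (21.6 to 73.2), Cacnb1 at 32.3 (23.1 to 47.01) and Cacnb2 at 4.12 (2.99 to 8.92). Cacna2d3 held 50.6% and Cacnb3 51.1% of their classes. The libraries are not strand-specific, and 17 members overlap a gene on the opposite strand. Cacnb1 overlaps the ribosomal protein gene Rpl19 by 656 bases, and Cacna2d4 overlaps Lrtm2 and Adipor2, whose mean counts of 662 and 390 stand beside 4.93 for Cacna2d4, so those values are uncertain. Cacnb3 overlaps Tuba1c by 12276 bases on the same strand.

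**Figure D1:**
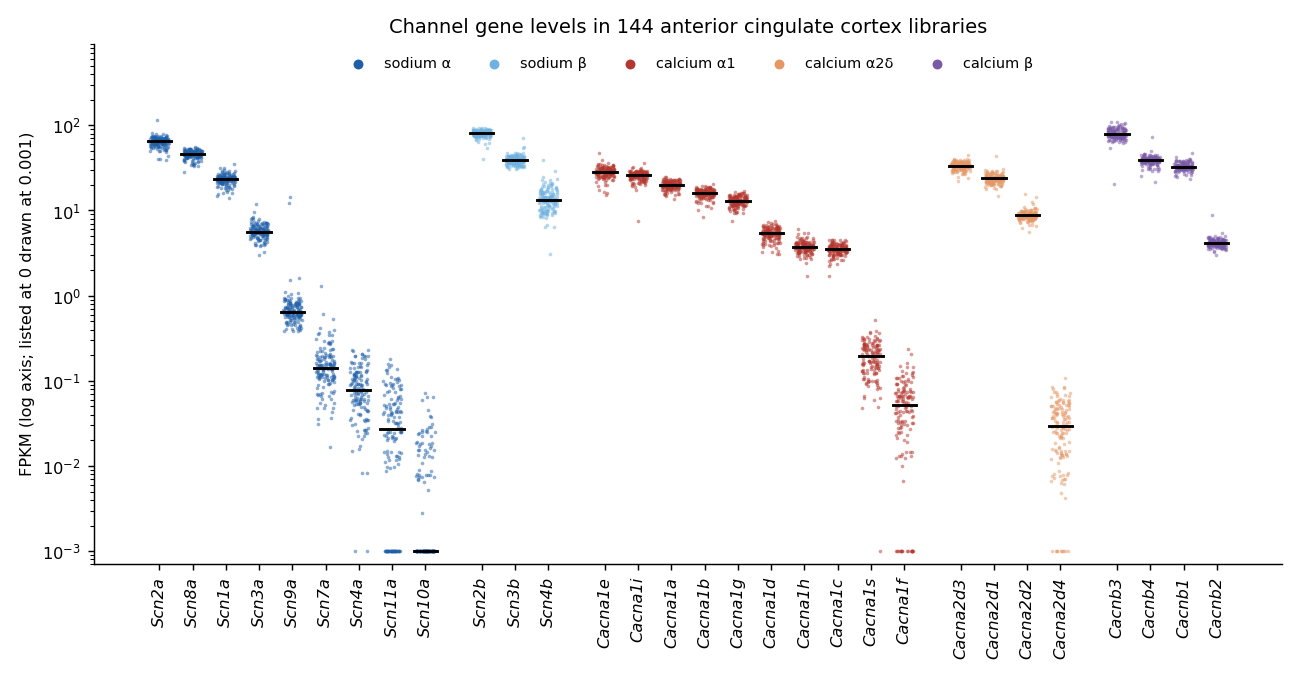
FPKM of members on a log axis, 1 point a library, coloured by subunit class, with a bar at the median; values listed at 0 are drawn at 0.001. Medians run from 80.9 FPKM for Scn2b to 0 for Scn10a, and 4 sodium α and 8 calcium α1 genes lie well above the other α genes.

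Between postnatal day 42 and day 90, a few members changed, and the largest called difference was in Scn4b. Differences are log2 fold changes, adult minus adolescent, with their standard error, from edgeR's quasi-likelihood test with Benjamini-Hochberg adjustment over all 20137 genes tested, and a gene is called at an adjusted p under 0.05. In females 5 of 31 members were called, which is 16.1% against 9.02% of all genes, 2 higher in adults (4.81% of all genes) and 3 lower (4.21%). In males 4 of 31 were called, which is 12.9% against 13.1% of all genes, 1 higher (6.95%) and 3 lower (6.11%). Scn4b, Cacna1a and Cacna2d3 were called in both sexes. Over the 31 members the median was -0.07 in females and -0.03 in males, against -0.00 and -0.01 over all genes, and 23 and 22 members were lower in adults. Among all tested genes of 8000 to 12000 bases, 55.5% were lower in adult females and 60.1% in adult males. Above 12000 bases these shares were 58.7% and 63.5%. In bulk tissue, fewer cells of a type and less RNA per cell cannot be told apart.

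Scn4b rose with age in both sexes. In females its level was 27.6 CPM at the lowest, 45.5 at the median and 86.4 at the highest in the 34 adolescent libraries, and 12.7, 66.5 and 125.7 CPM in the 35 adult libraries. In males the values were 27.9, 48.7 and 96.8 CPM in 39 adolescent and 38.8, 66.8 and 169.5 CPM in 36 adult libraries. The ranges overlapped, yet 33 of 35 female and 32 of 36 male adult libraries lay above the adolescent median of their sex. The log2 fold change was 0.43 ± 0.096 (adjusted p = 0.000789) in females and 0.42 ± 0.093 (adjusted p = 0.000505) in males. Adults were higher in 12 of 12 pairs of groups matched for sex and exposures, by 0.17 to 0.73 on the log2 scale of group means.

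The 2 highest Scn4b libraries also had the most RNA of striatal markers. Male FCL VEH adult replicate 1 had Scn4b at 169.5 CPM and the sum of 10 striatal markers at 1324 CPM, and female FCL VEH adult replicate 2 had 125.7 and 821 CPM. Of those 10 markers 7 were higher in adult females (1 called) and 8 in adult males (2 called), with summed levels of 221 to 469 CPM in adolescent and 238 to 821 CPM in adult females, and 218 to 377 and 260 to 1324 CPM in males. The called shares over all genes were 9.02% in females and 13.1% in males. Drd2 and Adora2a, which define striatal projection neurons, had medians of 3.60 and 4.14 CPM, and Six3 was at 0 in 13 libraries. Over all libraries but the 5 that stand apart, as deviations from group means, Scn4b and the striatal sum had Pearson's r = 0.545 and Spearman's rho = 0.450 (permutation p = 1e-05 for each, the smallest possible, 9.7e-05 adjusted over 78 correlations). The value of r was 0.453 without the 2 libraries farthest out and 0.401 to 0.647 within a sex and age. With the striatal and oligodendrocyte sums as covariates, a fit chosen after seeing the data, Scn4b was at 0.38 in females (adjusted p = 0.000492) and 0.37 in males (adjusted p = 0.00104), still called.

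Scn3b, a β subunit that also acts in adhesion, was called higher in adult females in the main fit, and Scn2b was not called. Scn3b had 178.6, 223 and 256 CPM (lowest, median, highest) in adolescent and 189.5, 240 and 396 CPM in adult females, with a log2 fold change of 0.12 ± 0.037 (adjusted p = 0.0243). Without the 5 libraries that stand apart it was 0.10 (adjusted p = 0.0553), the 396 CPM being female PF VEH adult replicate 6. In males Scn3b was at 0.08 ± 0.036 and not called (adjusted p = 0.122). Without those 5 libraries it was at 0.09 in males and called (adjusted p = 0.0353). Scn2b was at -0.06 ± 0.036 in females and 0.04 ± 0.035 in males, neither called.

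Of the sodium channel α subunits 1 was called, Scn3a in males. Scn3a had 40.6, 85.4 and 111.4 CPM (lowest, median, highest) in adolescent males and 45.3, 73.3 and 109.9 CPM in adult males, so the ranges overlapped almost wholly, with 32 of 36 adult libraries below the adolescent median. Its log2 fold change was -0.19 ± 0.060 in males (adjusted p = 0.0233) and -0.14 ± 0.062 in females (adjusted p = 0.146). Scn8a was at -0.07 ± 0.039 in females and -0.08 ± 0.038 in males, Scn2a at -0.08 ± 0.044 and -0.09 ± 0.043, and Scn1a at -0.07 ± 0.050 and -0.03 ± 0.049. None of these 3 was called in either sex.

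Cacna2d3, the most abundant α2δ gene, fell in both sexes. In females it was at 110.8, 137.03 and 172.7 CPM (lowest, median, highest) in adolescents and at 82.04, 122 and 145.2 CPM in adults, and 32 of 35 adult libraries lay below the adolescent median. In males the values were 104.2, 134.9 and 154.2 CPM in adolescents and 106.7, 124 and 146.7 CPM in adults, with 31 of 36 adult libraries below. The log2 fold change was -0.20 ± 0.035 (adjusted p = 1.83e-05) in females and -0.11 ± 0.034 (adjusted p = 0.0129) in males, and adults were lower in 12 of 12 matched pairs of groups. Cacna2d1 and Cacna2d2 were not called, at -0.09 ± 0.042 and -0.04 ± 0.048 in females and -0.05 ± 0.041 and -0.02 ± 0.046 in males.

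Among the α1 pores 2 were called in the main fit, both lower in adults: Cacna1a in both sexes and Cacna1g in females. The sex in which Cacna1g was called depended on the fit. Cacna1a was at 206, 273 and 328 CPM (lowest, median, highest) in adolescent and 186.8, 256 and 302 CPM in adult females, and at 205, 274 and 322 and 182.8, 252 and 291 CPM in males. Its log2 fold change was -0.11 ± 0.035 (adjusted p = 0.0294) in females and -0.13 ± 0.034 (adjusted p = 0.00293) in males, and 27 of 35 and 28 of 36 adult libraries lay below the adolescent median. Cacna1g had 83.9, 122.7 and 138.7 CPM in adolescent and 62.3, 106.9 and 140.5 CPM in adult females. That difference was -0.15 ± 0.044 in females (adjusted p = 0.0212) and -0.11 ± 0.043 in males (adjusted p = 0.0580). Without the 5 libraries that stand apart, Cacna1g was at -0.12 in females (adjusted p = 0.0532) and -0.13 in males (adjusted p = 0.0115). Male Cacna1g was also called with DESeq2 (adjusted p = 0.0363) and with the oligodendrocyte and striatal sums as covariates (adjusted p = 0.0285). Female Cacna1a was at -0.09 without those 5 libraries (adjusted p = 0.0802). Cacna1b, which shares the presynaptic role of Cacna1a, was at -0.12 ± 0.044 and -0.10 ± 0.042 and was not called in the main fit. Without the 5 libraries that stand apart it was called in males (-0.11, adjusted p = 0.0479). Cacna1c and Cacna1d (L-type), Cacna1e (R-type) and Cacna1h and Cacna1i (T-type) lay between -0.08 and -0.00 in females and between -0.07 and -0.02 in males, and none was called. The L-type pores with low counts were not called either, with Cacna1s at 0.31 ± 0.16 in females and 0.13 ± 0.16 in males, and Cacna1f at -0.27 ± 0.30 and -0.29 ± 0.29. The 4 Cacnb genes lay between -0.07 and 0.02 over both sexes, with none called.

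**Figure D2:**
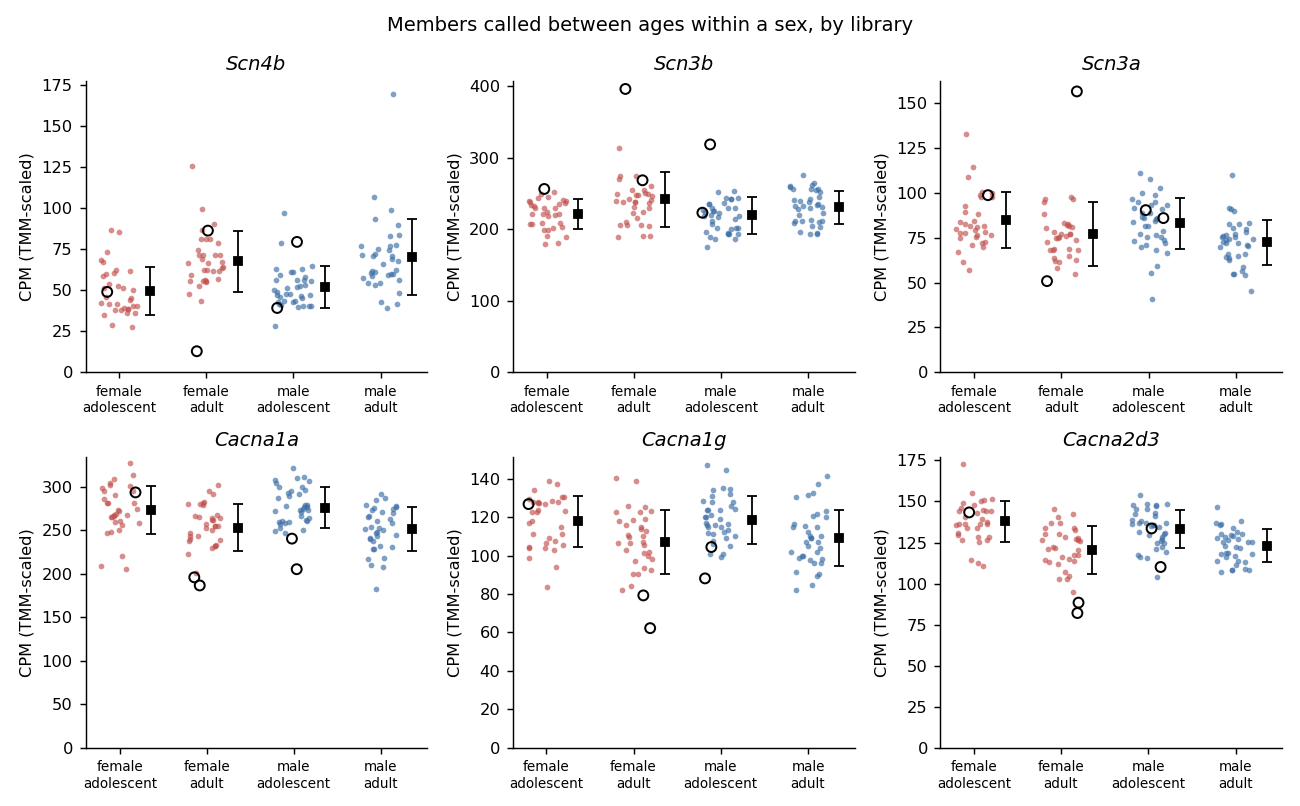
CPM of the 6 members called between ages within a sex, 1 point a library, by sex and age; open circles are the 5 libraries that stand apart, and squares with bars are the mean and SD. Scn4b is higher and Cacna2d3 lower in adults of both sexes with overlapping ranges, and an open circle is the highest Scn3b value (396 CPM) and the lowest Scn4b value (12.7 CPM).

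The calls depended on the libraries kept. Without the 5 libraries that stand apart, 2 of 31 members were called in females (Cacna2d3 and Scn4b, against 10.3% of all genes) and 7 in males (Cacna1a, Cacna1b, Cacna1g, Cacna2d3, Scn3a, Scn3b and Scn4b, against 16.9%). Within the PF VEH and FCL VEH groups alone, 0 of the 28 members tested were called in females (against 0.513% of all genes) and 1, Cacna1a, in males (against 2.06%). There Scn4b was at 0.47 in females and 0.36 in males, Cacna2d3 at -0.18 and -0.13, and Cacna1a at -0.09 and -0.22. With the sexes averaged, a contrast added after seeing the data, 10 of 31 members were called (32.3%, against 22.2% of all genes), 3 higher and 7 lower in adults. Among those added were Cacna1b (-0.11 ± 0.030, adjusted p = 0.00330), Scn8a (-0.08 ± 0.027, adjusted p = 0.0267) and Scn2a (-0.08 ± 0.031, adjusted p = 0.0414). The Scn2a call was lost with an offset for gene length (adjusted p = 0.296) and with no low-count filter (adjusted p = 0.0728), and that of Scn8a with the offset (adjusted p = 0.257) and with the oligodendrocyte and striatal sums as covariates (adjusted p = 0.0635). Neither was called within the PF VEH and FCL VEH groups alone (adjusted p = 0.645 for Scn2a and 0.328 for Scn8a). The authors' deposited table, whose age comparison is not split by sex, lists the same 10 members at an adjusted p under 0.05, among 12.1% of all its genes.

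No member passed the test of a difference in the age contrast between the sexes. The contrast of males minus females called 0 of 31 members and 0% of all genes, with 3 members and 5.28% of genes at an unadjusted p under 0.05, and DESeq2 called 0 members as well. The smallest p was that of Scn9a, at -0.82 ± 0.26 (adjusted p = 0.754), from 0.41 ± 0.18 in females and -0.42 ± 0.18 in males. Without the 5 libraries that stand apart, which include the female adult and male adolescent libraries with olfactory markers, it was -0.11. Scn2b (0.11 ± 0.050, adjusted p = 0.924) came next. Among the 23 members with a median count of at least 100, the 95% intervals of the sex difference lay within -0.28 to 0.26.

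**Figure D3:**
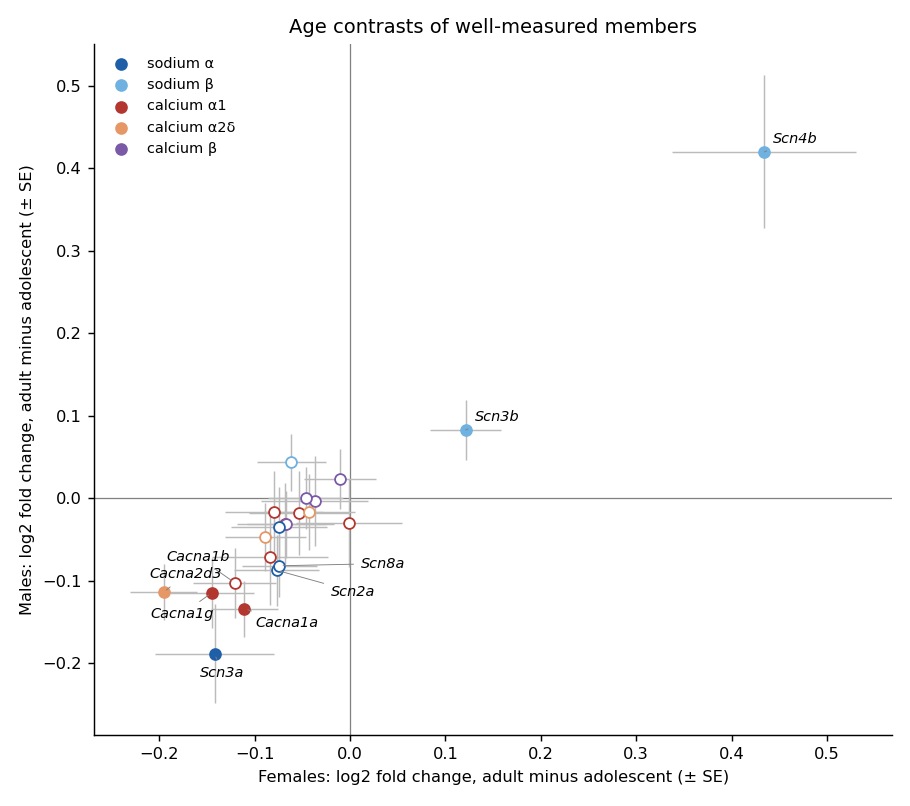
Log2 fold change (adult minus adolescent) in females against that in males for well-measured members (median count of at least 100), with SE; filled points were called in at least 1 sex. Scn4b and Scn3b are above 0 in both sexes, and Cacna2d3, Scn3a, Cacna1a, Cacna1g and Cacna1b below 0 in both.

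Gene length moved with the age contrast across the whole table. The median log2 fold change of genes under 1000 bases was 0.03 in females and 0.04 in males, and that of genes over 12000 bases was -0.03 and -0.04. Members are long, with median lengths of 12436 bases for calcium α1 and 9130.5 bases for sodium α genes, against 4423.5 bases for sodium β genes. Scn4b, Scn3b, Scn3a, Cacna1a, Cacna1g and Cacna2d3 all lay further from 0 than the median of genes of their length. They were picked because they were called, so that distance follows from the choice and says nothing on the part of length. Of all 31 members, 22 in females and 18 in males lay below the median of genes of their length. The median difference from it was -0.052 in females and -0.0035 in males. With a smooth offset for gene length, chosen after seeing the data, 4 members were called in females (Scn4b, Scn3b, Cacna2d3 and Cacna1g, against 8.61% of all genes) and 1 in males, Scn4b (0.45, adjusted p = 0.000118), against 12.1% of all genes. There Cacna1a was at -0.09 in males (adjusted p = 0.0821), Cacna2d3 at -0.09 (adjusted p = 0.132) and Scn3a at -0.14 (adjusted p = 0.100).

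**Figure D4:**
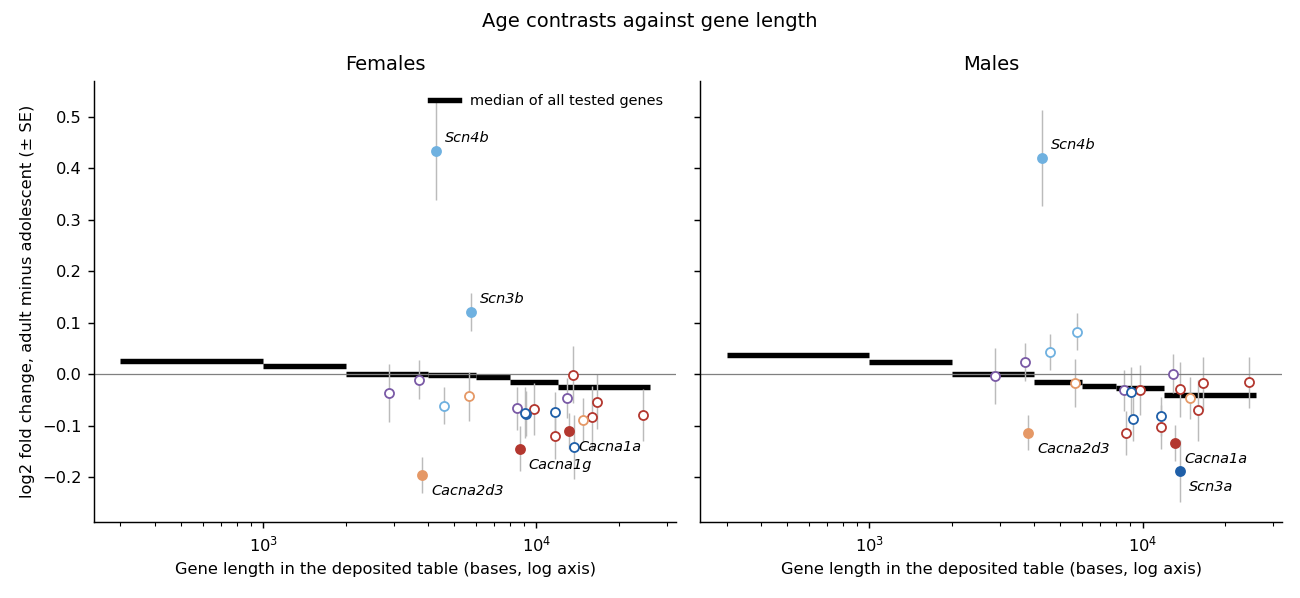
Log2 fold change (adult minus adolescent, with SE) of well-measured members (median count of at least 100) against gene length on a log axis, in females (left) and males (right), coloured by subunit class; filled points were called, and black bars are medians of all tested genes in a length bin. The bars run from 0.03 to -0.03 in females and from 0.04 to -0.04 in males. Called members lie further from 0 than the bar of their length, which follows from the choice of called genes.

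Markers of other cells moved with age too, and the called shares over all genes were 9.02% in females and 13.1% in males. Of 12 oligodendrocyte markers 10 were lower in adult females (1 called) and 11 in adult males (7 called), with summed levels of 2658 to 22002 CPM in adolescent and 2821 to 13709 CPM in adult females, and 3159 to 26458 and 2224 to 18907 CPM in males. None was at 0 in any library. Scn3a, Scn3b and Cacna1g had r = -0.424, -0.419 and -0.409 with that sum over the same libraries as deviations from group means (rho = -0.395, -0.399 and -0.407, permutation p = 1e-05 for each, 9.7e-05 adjusted), and r = -0.404, -0.396 and -0.403 without the 2 libraries farthest out. Within a sex and age these r ran from -0.530 to -0.313, from -0.603 to -0.298 and from -0.485 to -0.268. Cacna1a and Cacna2d3 had the same sign, with r = -0.339 and -0.273 (permutation p adjusted 0.00047 and 0.0065). Scn4b had the opposite sign, with r = 0.369 (rho = 0.339, permutation p = 2.0e-05 and 6.0e-05, adjusted 0.00017 and 0.00039), 0.336 without the 2 libraries farthest out and 0.187 to 0.538 within a sex and age. Of 14 inhibitory neuron markers 13 were higher in adult females (1 called) and 12 in adult males (6 called), with summed medians of 1650 and 1745 CPM in females and 1636 and 1726 CPM in males, and Cacna2d3 had r = 0.445 with that sum (rho = 0.432, permutation p = 1e-05 for each, 9.7e-05 adjusted). Cacna1g and Cacna1a also rose with the inhibitory sum, with r = 0.322 and 0.239 (permutation p adjusted 0.00071 and 0.018). Scn4b, Scn3b and Scn3a had r = 0.160, 0.107 and -0.034 with it. Of 12 excitatory neuron markers 7 were lower in adult females (1 called) and 6 in adult males (0 called). Their summed medians were 3421 CPM in adolescent and 3117 CPM in adult females, and 3393 and 3205 CPM in males, and Cacna2d3 had r = 0.265 with that sum (rho = 0.234, permutation p = 0.00168 and 0.00601, adjusted 0.0073 and 0.0192), 0.254 without the 2 libraries farthest out and from -0.334 to 0.573 within a sex and age. With the oligodendrocyte and striatal sums as covariates, 6 members were called in each sex, against 10.1% of all genes in females and 10.8% in males, and Cacna2d3 was at -0.21 in females and -0.15 in males. The part of inhibitory and excitatory neuron markers in the result was not tested.

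Proteins that bind or anchor these channels were read from lists of partner genes. Of 27 tested sodium channel partners 2 were called higher and 4 lower in adult females, and 1 higher and 4 lower in adult males, with list medians of -0.03 and -0.02. Over all genes 4.81% were called higher and 4.21% lower in females, and 6.95% and 6.11% in males. Nfasc, an adhesion molecule of the axon initial segment and node, was at -0.34 ± 0.069 in females (adjusted p = 0.000213) and -0.48 ± 0.067 in males (adjusted p = 1.4e-08). Bulk gene counts do not say which cells its RNA came from. In the same contrasts the oligodendrocyte markers had list medians of -0.28 and -0.61, and their part in the Nfasc difference was not tested. Csnk2a1, the kinase subunit that phosphorylates channel anchor sites, was at -0.10 ± 0.021 and -0.07 ± 0.020, and Fgf11, an intracellular channel-binding factor, at -0.24 ± 0.081 and -0.23 ± 0.078. Calm3 (-0.13 ± 0.035) and Cntn2 (0.26 ± 0.083) were called in females and Tnr (-0.14 ± 0.047) in males, and their difference between the sexes was not tested here.

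Of 35 tested calcium channel partners 2 were called higher and 5 lower in adult females, and 2 higher and 3 lower in adult males, with list medians of -0.04 and -0.03. Over all genes 4.81% were called higher and 4.21% lower in females, and 6.95% and 6.11% in males. The SNARE genes of transmitter release went apart: Snap25 was at 0.18 ± 0.044 in females and 0.21 ± 0.042 in males, and Stx1a at -0.23 ± 0.049 and -0.16 ± 0.047. Cacng4, an auxiliary subunit of AMPA receptors related to calcium channel γ subunits, was at -0.21 ± 0.056 and -0.24 ± 0.054. Unc80, a subunit of the sodium leak channel complex, was at 0.12 ± 0.040 and 0.16 ± 0.039. The pore of that complex, Nalcn, was at -0.12 ± 0.038 in females, where Calm3, on this list too, was also called.

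Between the sexes at the same age, no member was called. On postnatal day 42, 0 of 31 members against 0.119% of all genes passed, and on day 90, 0 of 31 against 0.0844%. At each age 1 member had an unadjusted p under 0.05, and DESeq2 called 0 members at either age. On day 42 the smallest p were those of Cacnb4 (-0.08 ± 0.040, males minus females, adjusted p = 0.841), Scn9a (0.35 ± 0.18, adjusted p = 0.856) and Cacna1s (0.28 ± 0.16, adjusted p = 0.867). On day 90 the smallest included those of Scn9a (-0.47 ± 0.18) and Scn2b (0.06 ± 0.036), each with an adjusted p of 0.980. The Scn9a values include the adolescent male and adult female libraries with olfactory markers, which held 14.2 and 12.2 FPKM as the 2 highest. Without the 5 libraries that stand apart, no library was above 1.599 FPKM. Among the 23 well-measured members the differences lay between -0.08 and 0.07, with 95% intervals within -0.20 to 0.25 over both ages.

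The prenatal and adolescent exposures left no called member. With sexes and ages averaged, 0 of 31 members were called for PAE minus PF and for PAE minus FCL (0.0149% of all genes in each), for PF minus FCL (0% of all genes) and for AAE minus VEH (0.00497%). Unadjusted p under 0.05 were found for 5, 3, 2 and 2 members, beside 7.61%, 5.29%, 4.05% and 7.57% of all genes, and DESeq2 called 0 members in each. The 2 contrasts of PAE share the PAE libraries, and each pair of prenatal contrasts shares a group. The authors' deposited table holds 5 comparisons besides age, with 0 members at an adjusted p under 0.05 in each.

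Cacna1g, a T-type pore that supports burst firing, had the smallest p in both PAE contrasts and did not pass the adjustment. It was at 0.13 ± 0.038 for PAE minus PF (unadjusted p = 0.000690, adjusted p = 0.284) and 0.14 ± 0.038 for PAE minus FCL (unadjusted p = 0.000421, adjusted p = 0.433). In adult females it was at 62.3, 103.7 and 125.8 CPM (lowest, median, highest) in 12 PF, 79.3, 100.04 and 125.5 CPM in 12 FCL and 99.97, 118.1 and 140.5 CPM in 11 PAE libraries. In adult males the values were 89.5, 106.9 and 131.4 CPM in 13 PF, 82.2, 104.8 and 137.5 CPM in 13 FCL and 96.3, 117.5 and 141.3 CPM in 10 PAE libraries. All groups overlapped. Adolescents had medians of 114.2, 116.4 and 125.8 CPM (PF, FCL, PAE) in females and 114.998, 116.6 and 123.9 CPM in males. All 8 PAE contrasts within a sex and age were above 0, from 0.06 ± 0.060 (PAE minus FCL, adolescent males) to 0.24 ± 0.088 (PAE minus FCL, adult females), none called. They split the same libraries as the pooled contrasts by which Cacna1g was picked, so their shared sign is not separate support.

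The next smallest p belonged to other members in each contrast. For PAE minus PF they were Scn7a (-0.51 ± 0.17, adjusted p = 0.408) and Cacna1i (0.11 ± 0.044, adjusted p = 0.566), and for PAE minus FCL Scn7a (-0.53 ± 0.17, adjusted p = 0.525) and Scn9a (-0.32 ± 0.16, adjusted p = 0.936). Scn7a had a median of 18 counts a library. The FCL libraries include female FCL AAE adult replicate 1, which had olfactory markers and high Scn9a. For PF minus FCL they were Scn4b (-0.21 ± 0.080), Scn3a (0.12 ± 0.052) and Scn2b (-0.05 ± 0.030), each with an adjusted p of 1. For AAE minus VEH, Scn2a was at -0.08 ± 0.031 (adjusted p = 0.481), Scn3b at -0.06 ± 0.026 (adjusted p = 0.590) and Cacna2d1 at -0.05 ± 0.029 (adjusted p = 0.692). Over the 23 well-measured members the 95% intervals ran at most from -0.15 to 0.23 for PAE minus PF, -0.31 to 0.21 for PAE minus FCL, -0.37 to 0.23 for PF minus FCL and -0.20 to 0.12 for AAE minus VEH.

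**Figure D5:**
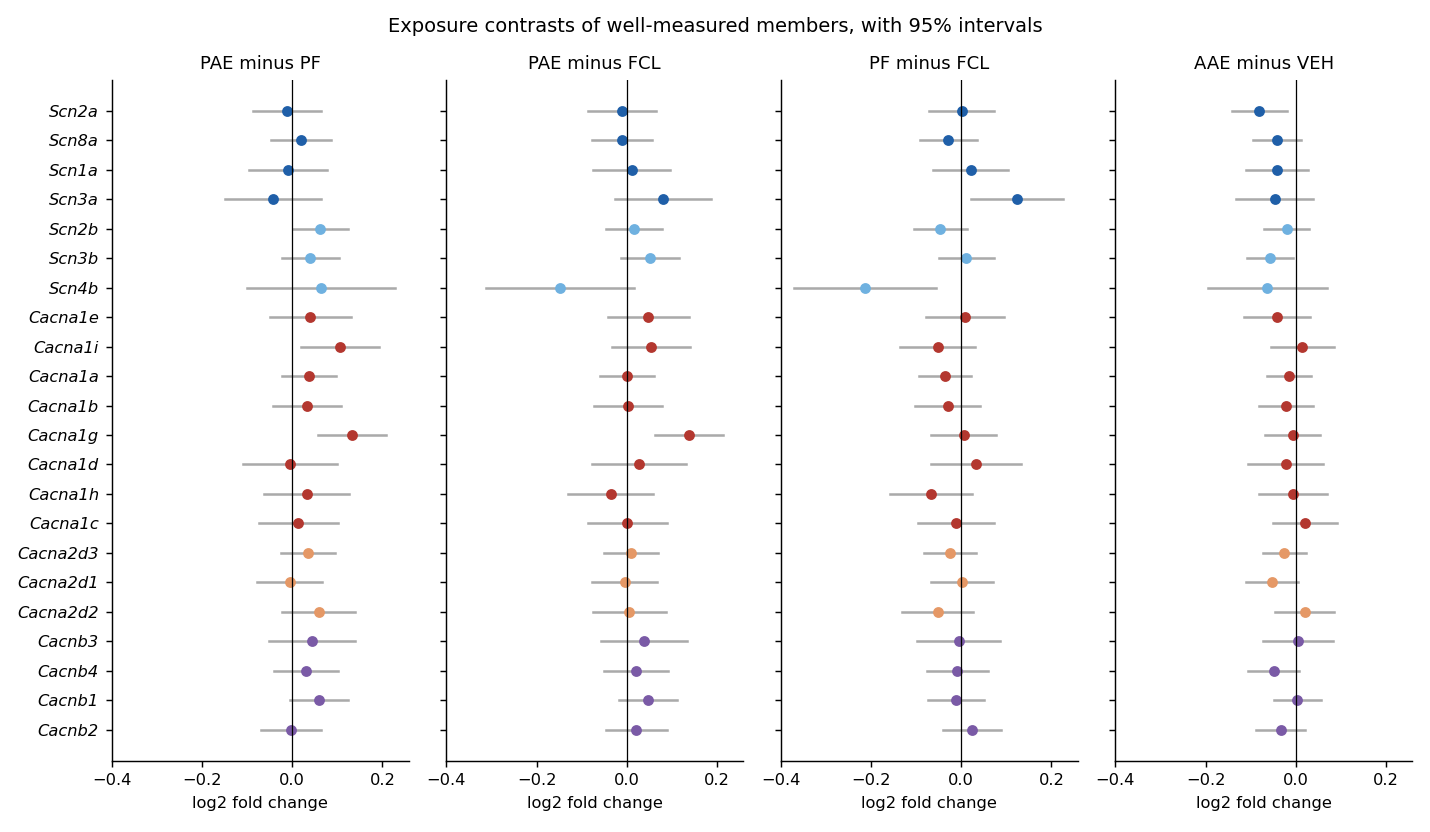
Log2 fold changes with 95% intervals of well-measured members (median count of at least 100), for the 4 exposure contrasts averaged over sexes and ages, coloured by subunit class. Cacna1g lies at 0.13 and 0.14 in the contrasts of PAE, Scn4b at -0.21 in PF minus FCL, and no member was called.

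Within a sex and age, 20 exposure contrasts were fitted: PAE minus PF, PAE minus FCL, PF minus FCL, AAE minus VEH and PAE AAE minus PF VEH in each of 4 sets. Each tested 28 members, and none was called in any, as was 0% of all genes in each of the 20. Over the 560 tests of members 34 had an unadjusted p under 0.05, beside 2.04% to 8.1% of all genes in the single contrasts. The smallest adjusted p was 0.439. That was Scn9a in adolescent males for PAE AAE minus PF VEH, at -1.86 with the olfactory library in the PF VEH group and 0.01 without the libraries that stand apart. Scn9a was among the 3 smallest p in 8 of the 20 contrasts, Cacna1g in 5, and Cacna1i, Scn3b and Scn7a in 4 each. Well-measured members lay between -0.33 and 0.32, with a median SE of 0.077, and 441 of their 460 intervals held 0.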

How the data were processed

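RNA-seq of the anterior cingulate cortex was deposited as gene tables of 69 female and 75 male libraries. The authors deposited read counts per gene and, per the file headers, FPKM for the same libraries. Reads were handled with fastp and HISAT2 2.0.5, per the submitters' processing notes, while the build and counter are not stated in the labels. The authors' deposited table of comparisons holds log2 fold changes with raw and adjusted p-values, and its columns of group means were not used.

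From the counts, genes passing edgeR's filterByExpr with a minimum count of 10 were kept, 20137 of 45785. TMM-scaled counts were tested with edgeR 4.0.16 (quasi-likelihood, R 4.3.3, Benjamini-Hochberg adjustment, limit 0.05). Contrasts of age, sex and pooled exposures came from 1 fit of all 24 groups, and those within a sex and age from fits of that set. DESeq2 1.42.0, RLE factors (DESeq2-type size factors), no low-count filter, subsets of libraries and leaving out each library of the groups of 5 or fewer were alternatives. A length offset, marker covariates and the contrast with sexes averaged were added after seeing the data. A library stood apart where Xist, Y-linked genes (male at least 100, female at most 20 CPM, Xist limit 100) or olfactory genes (100 CPM) went against its label or tissue. The library with the fewest genes detected also stood apart, with no threshold set for that number.

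Positions and promoter windows are from RefSeq (GRCr8), which matched 45780 genes. Of 366 pairs of libraries within groups 0 were identical. The scripts were tested on simulated data. The members and lists were chosen with earlier results of these data known. Each member is named with its level, then those called in a comparison, or the 3 with the smallest p where none passed, and up to 4 called partners of each list and direction. Results on some of these genes are not reported here, though counts include them.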

Additional observations from a re-analysis of the deposited data

Results flagged for a closer look

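For the 6 members called between ages within a sex, the CPM of each group was checked for a highest or lowest library far from the others (Dixon's 95% limit). Over 6 genes and 24 groups, 17 sets held such a library, and chance flags about 1 in 20 groups. Of these values 8 came from libraries that stand apart and 9 from others.

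Female PF VEH adult replicate 6, which had the fewest genes detected, was far from its group in 5 genes: Cacna1a 186.8 CPM, Cacna2d3 88.4 CPM, Scn3a 156.7 CPM, Scn3b 396 CPM and Scn4b 12.7 CPM. Male PF VEH adolescent replicate 6, with olfactory markers, was far in 3: Cacna1a 205 CPM, Cacna2d3 110.1 CPM and Scn4b 79.3 CPM.

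In other libraries Cacna1a was low in female FCL VEH adolescent replicate 4 (206 CPM), female PF AAE adult replicate 2 (200.9 CPM) and male FCL AAE adult replicate 6 (182.8 CPM), and high in male PF AAE adolescent replicate 5 (308 CPM). Cacna1g was low in male PF AAE adolescent replicate 1 (99.5 CPM). Scn3a was high in female PF VEH adolescent replicate 6 (132.8 CPM), and Scn3b in female PAE VEH adult replicate 6 (314 CPM). Scn4b was high in male FCL VEH adolescent replicate 4 (96.8 CPM) and male PF VEH adult replicate 3 (98.7 CPM).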

How the results depend on the processing

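Apart from fits that left out a replicate, 7 counts of called members moved by over 1.5 times and the others did not. In females the 5 called members became 2 without the 5 libraries that stand apart and 0 with the PF VEH and FCL VEH groups alone. In males the 4 became 7 without those libraries, 1 with the length offset and 1 with the PF VEH and FCL VEH groups alone. With the sexes averaged, 10 (against 22.2% of all genes) became 2 of 28 tested in those groups alone (against 6.22%). In adolescent males, PAE AAE minus PF VEH, 0 became 1 (Scn9a) in the fit of all libraries. Scn9a was at -1.86 in that fit, with the olfactory library in the PF VEH group. Without the libraries that stand apart it was at 0.011. Why the counts moved between fits was not tested. Of the log2 fold changes of named members 624 kept direction and side of the threshold, 27 lost and 9 gained the call, and 10 changed sign. In the PF VEH and FCL VEH groups alone, the female age values of Scn2a, Scn3a, Scn8a and Scn9a became 0.014, 0.030, 0.0089 and -0.022. With the length offset the male age value of Scn1a became 0.0042. Without the libraries that stand apart, Scn9a became 0.035 (adult females, PAE minus FCL), 0.019 (adolescent males, PAE minus PF), -0.0058 (PF minus FCL) and 0.011 (PAE AAE minus PF VEH). With DESeq2, Scn9a became 0.058 in adolescent males, PAE minus PF. Leaving out each of 19 libraries in turn (the groups of 5 or fewer) gave 4 to 6 called members in females, 4 to 5 in males, 8 to 11 with the sexes averaged and 0 in the sex, age-by-sex and pooled exposure contrasts. The contrasts within a sex and age gave 0 in the 10 fits of adolescent females, 5 of adult females and 4 of adult males, and adolescent males had no such fit. The female call of Cacna1a was lost without PAE VEH adolescent replicate 3 (adjusted p = 0.0536). With the sexes averaged, Scn2a was called in 11 of 19 (adjusted p from 0.0195 to 0.0745), and lost the call without female PAE VEH adolescent replicates 1, 3 and 5, PAE AAE adolescent 3 and 5, PAE AAE adult 1 and 2, and male PAE VEH adult 3. No paired analysis was possible because the labels do not say that a replicate number marks a shared litter, animal or day. Low counts limit Scn4a, Scn7a, Scn11a, Cacna1f, Cacna1s and Cacna2d4.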

Other observations

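Other marker lists also differed between ages, where 9.02% of all genes were called in females and 13.1% in males. All 7 red blood cell genes were lower in adults of both sexes, with 6 called in females and 7 in males and list medians of -1.49 and -1.51 on the log2 scale. All 13 immediate early genes, which neurons induce on activity, had higher levels in adults, female and male, with 11 called in females and 13 in males and list medians of 0.55 and 0.74. Of 10 oligodendrocyte precursor genes, 7 were lower in adult females (3 called) and 9 in adult males (5 called). Of 10 endothelial genes, 9 were lower in adult females (0 called) and 10 in adult males (5 called). The part of these markers in the members' age differences was not tested.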
